A study of Mus musculus with 4 samples.

Results

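The genes of oxidative phosphorylation were followed through 4 single-cell libraries of mouse bone marrow. Members were taken by symbol, as the genes that start with mt-, Nduf, Sdh, Uqcr, Atp5, Cox4, Cox5, Cox6, Cox7 or Cox8. The rule found 110 of the 31053 genes in the count matrices, of which 13 are encoded by mitochondrial DNA (mt- genes) and 97 by nuclear DNA. Of the nuclear members, 82 are subunits (36 of complex I, 4 of complex II, 8 of complex III, 18 of complex IV and 16 of complex V) and 12 are assembly factors (Ndufaf and Sdhaf genes). The other members are Cox7a2l, Atp5s and Ndufa4l2. Ndufa4, once assigned to complex I, was counted with complex IV.

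Oxidative phosphorylation makes ATP in the inner mitochondrial membrane. Complexes I (NADH dehydrogenase), II (succinate dehydrogenase), III (cytochrome bc1) and IV (cytochrome c oxidase) pass electrons to oxygen, and all but complex II pump protons, which drive ATP synthase (complex V). Complexes I, III, IV and V combine subunits made in the mitochondrion with subunits imported from the cytosol, so that each needs transcripts from both genomes, while complex II is wholly nuclear. Blood stem cells are known for a low reliance on this pathway, and their progeny for a higher one.

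The libraries cross 2 sorted populations with 2 genotypes, with 1 library per group. KLS cells are lineage-negative, c-Kit+ and Sca-1+ stem and progenitor cells from mice of 8 to 12 weeks, for which the labels name 4 mice, and the stromal sort (MSC) took CD45neg, Ter119neg/low, CD71neg, Sca-1+ and CD140a+ cells from mice of 6 to 8 weeks. Control mice were Vav1-Cre/+STAT5ab+/+ and knockout mice (STAT5 KO) were Vav1-Cre/+STAT5abfl/fl, so all 4 groups carried Vav1-Cre. That Cre is best known for its activity in the blood lineage, and its reach in stromal cells is not given in the sources used here. With 1 library per group no difference could be tested, no p-value is given, and every interval (95%) covers counting error only, not the spread between mice or preparations.

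A barcode counted as a kept cell when it had 200 genes or more and no more than 10% mt- counts, which left 3563 and 7433 KLS cells (control and STAT5 KO) and 613 and 385 MSC cells. Counts are of unique molecular identifiers (UMIs), with a median per kept cell of 13807 and 9777 in KLS and 2659 and 2428 in MSC. The deleted genes Stat5a and Stat5b together stood at 129 CPM (UMIs per 1000000 of all gene UMIs) in KLS control against 11.6 CPM in KLS STAT5 KO. In the MSC libraries their control level was 93.7 CPM (80.1 to 109) against 101 CPM (83.9 to 121) with STAT5 KO, so they give no check of the MSC genotype labels. In the MSC stromal gate, defined below, they stood at 105 and 110 CPM, or 105% of control (82.2 to 133). No loss of these transcripts was thus seen in stromal cells, and STAT5 KO names the label of the mice there. Between 42 and 290 barcodes were shared by each pair of libraries. Among kept KLS cells, 373 control and 270 STAT5 KO barcodes held more UMIs in another library, with a median of 713 and 662 UMIs. They carried stromal marker genes at 54907 and 56221 CPM, against 1.68 and 3.29 CPM in the other kept KLS barcodes, and Ptprc (CD45) at 35.7 and 11.8 CPM against 153 and 154 CPM. These low barcodes go against the KLS label, and the gates and depth bands below leave them out. In the MSC libraries 454 and 271 kept cells met the stromal gate (at least 3 stromal marker UMIs and more than erythroid ones). Another 125 and 94 carried mainly erythroid genes, at a median of 648 and 633 UMIs, in a sort gated on low or absent Ter119 and on absent CD71. The remaining 34 and 20 kept MSC cells were left unassigned.

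In KLS cells the summed mt- level was lower in STAT5 KO and the summed nuclear level was higher. The 13 mt- genes summed to 43671 CPM in KLS control (43615 to 43726) and 29481 CPM in KLS STAT5 KO (29444 to 29518), a log2 ratio of -0.57 (-0.57 to -0.56), or 67.5% of control. The 97 nuclear genes summed to 20543 CPM (20505 to 20581) and 23374 CPM (23341 to 23407), a log2 ratio of 0.19 (0.18 to 0.19). The ratio of mt- to nuclear UMIs was thus 2.13 in control and 1.26 in STAT5 KO. In single KLS cells the median mt- share was 4.37% of UMIs in control (10th to 90th percentile 3.32 to 5.32%) and 2.90% in STAT5 KO (2.30 to 3.79%), and the ranges overlap. The mt- genes are part of the total they are divided by. Per 1000000 UMIs outside the mt- genes, the nuclear sum still stood at 21481 in control and 24084 in STAT5 KO.

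Stromal cells gave the opposite signs. Over kept MSC cells the mt- sum was 21882 CPM (21666 to 22099) in control against 27142 CPM (26850 to 27436) in STAT5 KO, a log2 ratio of 0.31 (0.29 to 0.33). The nuclear sum was 11061 CPM (10908 to 11215) and 10425 CPM (10244 to 10608), a log2 ratio of -0.09 (-0.12 to -0.05). In the stromal gate alone the mt- sum was 23405 and 28191 CPM (log2 0.27, 0.25 to 0.29) and the nuclear sum 11875 and 10826 CPM (log2 -0.13, -0.17 to -0.10).

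The filter on mt- counts bears most on the MSC libraries. Barcodes over 10% mt- counts numbered 170 of 3747 (4.54%) in KLS control, 67 of 7511 (0.892%) in KLS STAT5 KO, 48 of 672 (7.14%) in MSC control and 25 of 425 (5.88%) in MSC STAT5 KO. They held 4.60, 1.19, 19.5 and 13.1% of the mt- UMIs of these libraries. With all barcodes the mt- sums were 45307 and 29782 CPM in KLS (log2 -0.61) and 26164 and 29983 CPM in MSC (log2 0.20). The nuclear sums were 20449 and 23354 CPM in KLS (log2 0.19) and 10900 and 10155 CPM in MSC (log2 -0.10). No sum over a whole library reversed with the filter, but the mt- sums of barcodes under 2000 UMIs did in both sorts.

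**Figure D1:**
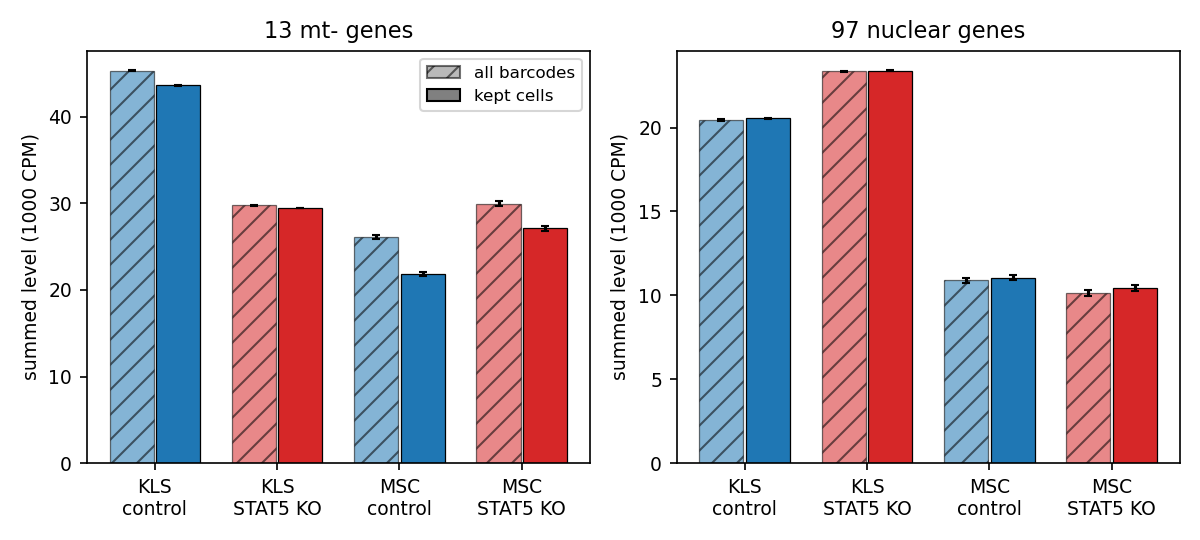
Summed level of the 13 mt- genes (left) and the 97 nuclear genes (right) in units of 1000 CPM for the 4 libraries, with all barcodes hatched and kept cells solid; bars start at 0 and error bars are exact Poisson 95% intervals. In KLS the mt- bar is lower and the nuclear bar higher in STAT5 KO, and in MSC the mt- bar is higher and the nuclear bar slightly lower.

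The mt- genes did not all share the direction of their sum in KLS, and the exceptions include mt-Atp8 and mt-Nd4l, which overlap the next gene. All mt- genes but mt-Nd6 lie on the plus strand of the mouse mitochondrial genome (GRCm38, GENCODE M21 annotation). mt-Atp8 (chrM:7766-7969, ATP synthase) shares its last 43 bases with mt-Atp6, and mt-Nd4l (chrM:9877-10173, complex I) shares its last 7 bases with mt-Nd4, each pair being read from 1 transcript. mt-Atp6, which was lower, shares 1 base with mt-Co3, and mt-Nd5 shares 14 bases with mt-Nd6 on the other strand. Reads in the overlaps on the same strand cannot be assigned to 1 gene with certainty. For mt-Nd5 and mt-Nd6 this depends on strand handling, which is not given in the sources used here. The plus strand sequences of mt-Atp8 and mt-Nd4l are shown because they stand apart from the gene they overlap in every KLS gate. Capitals mark the bases shared with the next gene.
mt-Atp8: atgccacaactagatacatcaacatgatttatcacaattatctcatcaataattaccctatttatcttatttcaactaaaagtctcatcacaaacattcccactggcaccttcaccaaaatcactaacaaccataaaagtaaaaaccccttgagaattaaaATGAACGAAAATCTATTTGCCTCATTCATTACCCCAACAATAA
mt-Nd4l: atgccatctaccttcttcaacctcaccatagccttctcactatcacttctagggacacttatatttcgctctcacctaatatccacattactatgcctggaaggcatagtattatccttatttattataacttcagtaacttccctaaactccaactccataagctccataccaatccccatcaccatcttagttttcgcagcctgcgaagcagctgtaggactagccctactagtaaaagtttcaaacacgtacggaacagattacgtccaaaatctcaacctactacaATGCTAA

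Of the 13 mt- genes, 9 were lower and 4 higher in KLS STAT5 KO, where 52.6% and 47.4% of 12354 genes were. The 3 genes of complex IV, its catalytic core, were mt-Co1 (8519 CPM in control against 5842 CPM in STAT5 KO, log2 -0.54), mt-Co2 (6292 and 4153 CPM, log2 -0.60) and mt-Co3 (8407 and 5006 CPM, log2 -0.75). mt-Cytb, the complex III member, stood at 4039 and 2524 CPM (log2 -0.68), and mt-Atp6, the proton channel subunit of ATP synthase, at 8649 and 5970 CPM (log2 -0.53). Among the complex I genes, mt-Nd1 (2118 and 1482 CPM), mt-Nd2 (1472 and 881 CPM), mt-Nd3 (1049 and 633 CPM) and mt-Nd4 (2578 and 2224 CPM) were lower, with log2 ratios of -0.52, -0.74, -0.73 and -0.21. mt-Nd4 was the least lowered of the 9.

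The 4 other mt- genes were higher in KLS STAT5 KO and are those with the fewest UMIs. mt-Nd4l stood at 146 CPM in control against 246 CPM in STAT5 KO, a log2 ratio of 0.76 (0.72 to 0.80). mt-Atp8 stood at 55.7 and 88.2 CPM, a log2 ratio of 0.66 (0.60 to 0.73). mt-Nd5, a complex I gene, stood at 326 and 408 CPM (log2 0.32, 0.30 to 0.35), and mt-Nd6, the minus-strand gene, at 22.3 and 25.6 CPM (log2 0.20, 0.09 to 0.30). As a share of all mt- UMIs, mt-Nd4l was 0.334% in control and 0.836% in STAT5 KO, and mt-Co3 was 19.3 and 17.0%. A difference was counted as large when the level in STAT5 KO was over 25% higher or over 20% lower than in control. In KLS 8 mt- genes were lower and 3 higher by that measure, as were 11.5% and 5.5% of the 12354 genes with at least 100 UMIs (17% in either direction).

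In the MSC stromal gate 11 of the 13 mt- genes were higher in STAT5 KO, where 38.9% of 6919 genes were. mt-Co1 stood at 3884 CPM in control against 5149 CPM in STAT5 KO (log2 0.41, 0.35 to 0.46), mt-Co3 at 3570 and 4571 CPM (log2 0.36) and mt-Cytb at 2483 and 2819 CPM (log2 0.18). mt-Nd4l was lower, at 617 and 524 CPM (log2 -0.24, -0.39 to -0.09), and mt-Atp8 stood at 239 and 223 CPM with an interval that includes 0 (log2 -0.10, -0.34 to 0.14). mt-Nd4l therefore went against the sum in both sorts, with the sign turned, while the stromal interval of mt-Atp8 leaves its sign open. mt-Nd5 was higher in STAT5 KO in both sorts (393 and 505 CPM in the stromal gate, log2 0.36).

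**Figure D2:**
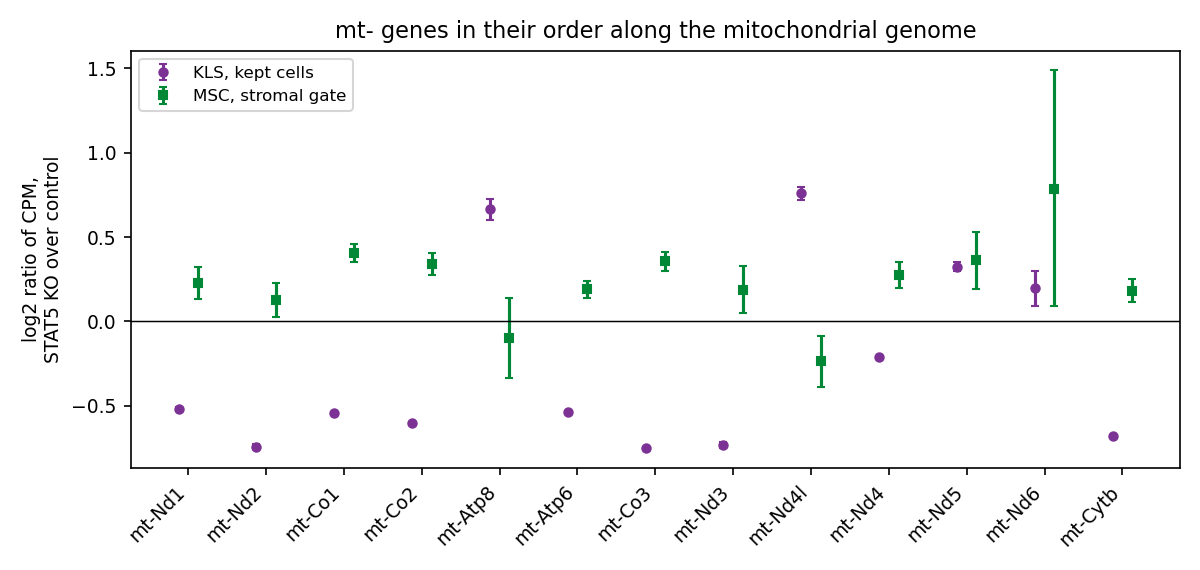
Log2 ratio of CPM, STAT5 KO over control, for each mt- gene in its order along the mitochondrial genome, in kept KLS cells (circles) and the MSC stromal gate (squares), with exact 95% counting intervals. In KLS 9 genes lie below 0, and mt-Nd4l (0.76) and mt-Atp8 (0.66) lie highest.

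KLS cells were split into gates by marker UMIs: erythroid-primed (Klf1 and Gata1), megakaryocyte-primed (at least 2 UMIs of Pf4), lymphoid-primed (at least 2 of Dntt), granule-rich myeloid (Mpo, Elane, Prtn3 and Ctsg at 0.2% of UMIs or more), mixed (more than 1 of these), stem-triad (Hlf, Mecom and Procr, and none of the former) and multipotent (the rest). The gates depend on depth, since a deep cell reaches a UMI minimum more easily. The granule gate is a range rather than a type, as 236 control and 1014 STAT5 KO cells lay between 0.16 and 0.24%. It held 200 control and 1108 STAT5 KO cells. The stem-triad gate held 367 and 272 cells, the multipotent gate 1193 and 2478, the lymphoid-primed gate 1072 and 2274, the megakaryocyte-primed gate 150 and 247, the erythroid-primed gate 44 and 120 and the mixed gate 164 and 664.

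The mt- sum was lower and the nuclear sum higher in STAT5 KO in each of the 7 gates. In the stem-triad gate the mt- sum was 46122 CPM in control against 32247 CPM in STAT5 KO (log2 -0.52), and the nuclear sum 18689 and 19837 CPM (log2 0.09, 0.07 to 0.10). In the lymphoid-primed gate the mt- sum was 43417 and 29352 CPM (log2 -0.56) and the nuclear sum 19918 and 22597 CPM (log2 0.18). In the granule-rich gate the mt- sum was 43277 and 29014 CPM (log2 -0.58) and the nuclear sum 23594 and 25651 CPM (log2 0.12). In these gates the mt- log2 ratios lay between -0.58 and -0.52 and the nuclear ones between 0.09 and 0.18. Over all 7 gates the mt- log2 ratios ranged more widely, from -0.61 to -0.39, than the nuclear ones, from 0.05 to 0.18.

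The megakaryocyte-primed gate gave the lowest mt- ratio (42056 and 27582 CPM, log2 -0.61) and the erythroid-primed gate the ratio nearest 0 (39557 and 30271 CPM, log2 -0.39, -0.40 to -0.37). The nuclear sums of the erythroid-primed gate, 27929 and 28880 CPM, were close to each other (log2 0.05, 0.03 to 0.07). Of the mt- genes with at least 100 UMIs in a gate, 9 or 10 were lower in STAT5 KO, and mt-Nd4l and mt-Atp8 were higher in all 7. mt-Nd4l ranged from a log2 ratio of 0.57 in the granule-rich gate to 0.94 in the erythroid-primed gate. Of the nuclear members with enough UMIs, 60 of 87 (69.0%) were higher in the stem-triad gate, 71 of 90 (78.9%) in the multipotent gate and 73 of 90 (81.1%) in the lymphoid-primed gate, where 51%, 54.8% and 53.1% of all genes with enough UMIs were. The count was 67 of 90 (74.4%) in both the granule-rich and the mixed gate and 66 of 86 (76.7%) in the megakaryocyte-primed gate, where 58.5%, 50.1% and 55.3% of all genes were higher. In the erythroid-primed gate 49 of 85 members (57.6%) were higher, close to the 54.6% of all genes. Residual Stat5a plus Stat5b in STAT5 KO was 29.9% of control in the stem-triad gate, 25.7% in the megakaryocyte-primed gate and 2.70% in the lymphoid-primed gate. The mt- log2 ratios of those gates were -0.52, -0.61 and -0.56. In the erythroid-primed, multipotent, granule-rich and mixed gates the residual was 13.9, 12.9, 5.52 and 3.72%. Their mt- log2 ratios were -0.39, -0.57, -0.58 and -0.54. A link between residual Stat5 and the mt- ratio was not tested.

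The gates also differed within a library. The stem-triad gate had the lowest nuclear and the highest mt- sum in both libraries, and the erythroid-primed gate had the highest nuclear sum in both. The lowest mt- sum was in the erythroid-primed gate in control and in the megakaryocyte-primed gate in STAT5 KO. Over the 6 unmixed gates, 74 of 93 nuclear members were highest in the erythroid-primed gate in control and 71 in STAT5 KO, where 26.1% and 24.1% of all 12354 genes were. In the stem-triad gate 58 and 72 members were lowest, where 14% and 19.4% of all genes were. The erythroid-primed gate is the smallest, with a median depth of 23490 UMIs in control and 17723 in STAT5 KO, against 12361 and 9213 in the stem-triad gate. Heat shock genes were also lowest in the stem-triad gate (3388 and 3877 CPM) and highest in the erythroid-primed gate (5607 and 6115 CPM). Between these gates the orders differed. In control the lymphoid-primed gate had 3879 CPM of heat shock genes beside a nuclear sum of 19918 CPM. The megakaryocyte-primed gate had 3677 CPM beside 21457 CPM. The part of heat shock genes in the result was not tested.

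**Figure D3:**
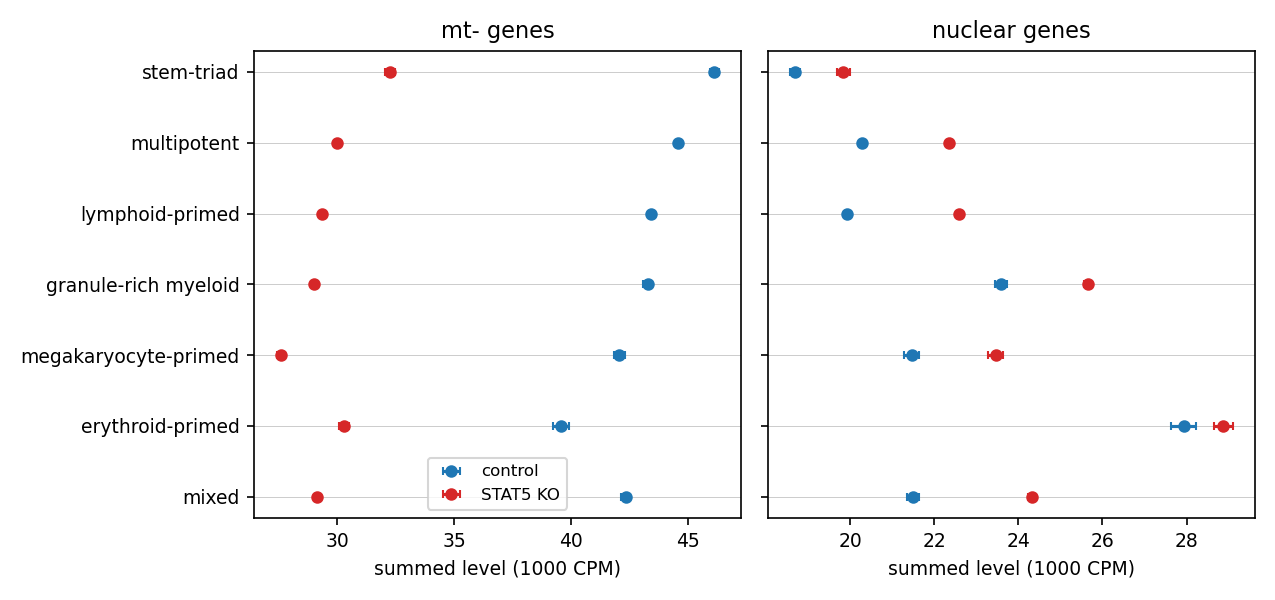
Summed mt- (left) and nuclear (right) level in units of 1000 CPM by KLS gate, control and STAT5 KO, with exact Poisson 95% intervals; the axes do not start at 0. In each gate the STAT5 KO point lies to the left of control for the mt- genes and to the right for the nuclear genes.

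Depth differed between the KLS libraries, so the sums were also compared within bands of UMIs per cell. Between 5000 and 10000 UMIs (874 control and 2538 STAT5 KO cells) the mt- sum was 49158 and 31195 CPM (log2 -0.66), and the nuclear sum 17158 and 21264 CPM (log2 0.31). Between 10000 and 20000 UMIs (1290 and 2868 cells) the mt- sum was 44368 and 28595 CPM (log2 -0.63) and the nuclear sum 20185 and 23760 CPM (log2 0.24). At 20000 UMIs or more (985 and 736 cells) the mt- sum was 42005 and 28578 CPM (log2 -0.56) and the nuclear sum 21737 and 25037 CPM (log2 0.20). Within these bands deeper cells had lower mt- and higher nuclear levels in both genotypes.

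The lower bands hold few control cells. Between 2000 and 5000 UMIs there were 30 control and 991 STAT5 KO cells, with mt- sums of 56901 and 34784 CPM and nuclear sums of 15400 and 21891 CPM. Under 2000 UMIs there were 11 and 30 cells, and neither sum differed beyond counting error (mt- log2 -0.03, -0.18 to 0.12, nuclear log2 0.02, -0.21 to 0.26). Kept in that lowest band, the barcodes that are larger in another library raised it to 360 and 285 cells. They turned its mt- sums to 22191 and 25102 CPM (log2 0.18). With all barcodes (430 and 329) its mt- sums were 76027 and 49956 CPM (log2 -0.61). Gate and band were also crossed. In all 17 strata with at least 20 cells in each library the mt- sum was lower in STAT5 KO (log2 from -0.78 to -0.31) and the nuclear sum higher (log2 from 0.06 to 0.49).

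**Figure D4:**
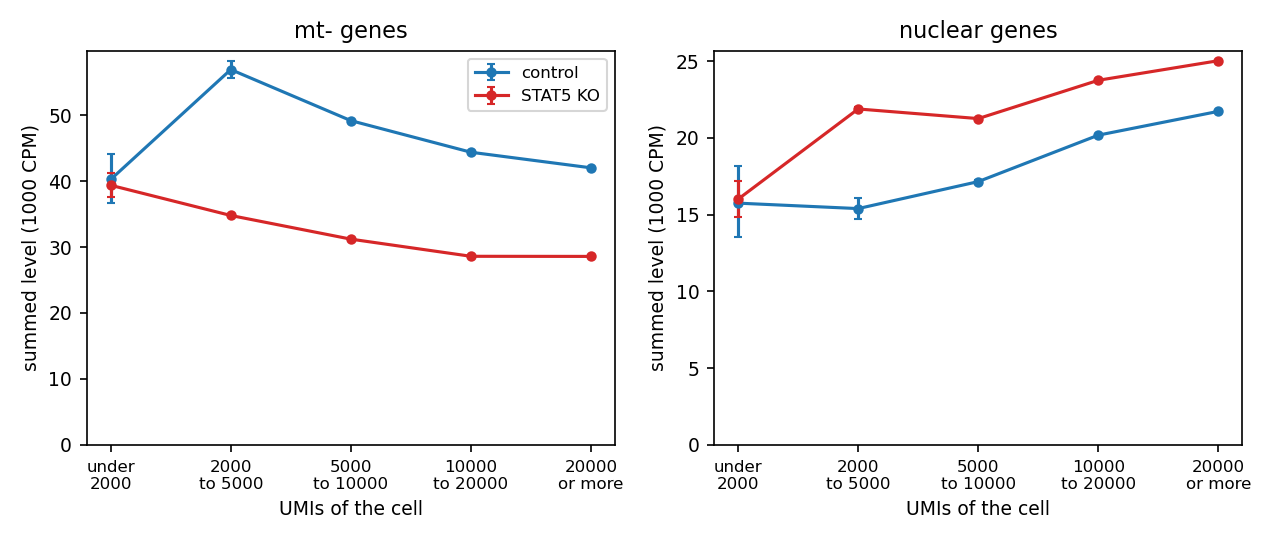
Summed mt- (left) and nuclear (right) level in units of 1000 CPM by UMIs per cell, in KLS control and STAT5 KO without barcodes that hold more UMIs in another library, with exact Poisson 95% intervals. From 2000 UMIs upward the STAT5 KO line lies below control for the mt- genes and above it for the nuclear genes, and under 2000 UMIs (11 and 30 cells) the intervals overlap.

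Of the 97 nuclear members, 93 had at least 100 UMIs over both KLS libraries. Of the other 4, Cox7b2 had 3 UMIs and 3 had none (Cox8b, Cox8c and a second identifier of Atp5o). On the log2(CPM + 1) scale 75 of the 93 were higher in STAT5 KO and 18 lower, with a median of 0.18, while 47.4% of all 12354 genes were higher, 52.6% lower, and their median was -0.01. Over 25% higher were 14 members and over 20% lower was 1, beside the background of 5.5% and 11.5%. The 14 are subunits, and no subunit was over 20% lower. Without the barcodes larger in another library 76 of 92 members were higher, 13 by over 25%, and none was over 20% lower, where 5.84 and 10.0% of 12160 genes were.

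By complex, the share of all genes beside each count is the 47.4% that were higher. In complex I 32 of 36 subunits were higher in KLS STAT5 KO (median log2 0.19). Ndufb7, an accessory subunit (chromosome 8, 83566671 to 83571626, GRCm38), stood at 179 CPM in control against 252 CPM in STAT5 KO (log2 0.49, 0.46 to 0.53). The accessory subunits Ndufa5 (120 and 157 CPM, log2 0.38) and Ndufb2 (148 and 190 CPM, log2 0.36) followed. Against the majority, the accessory subunit Ndufa6, picked after its value was seen, stood at 238 and 208 CPM (log2 -0.20, -0.23 to -0.16).

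Complex II, the enzyme shared with the citric acid cycle, differed least. Its 4 subunits had a median log2 ratio of 0.06. The flavoprotein Sdha stood at 161 and 162 CPM (log2 0.01, -0.03 to 0.05), the iron-sulfur subunit Sdhb at 136 and 160 CPM (log2 0.23, 0.19 to 0.27), and the membrane anchors Sdhc at 96.5 and 105 CPM (log2 0.12) and Sdhd at 127 and 120 CPM (log2 -0.08, -0.13 to -0.04). As the mean CPM of single cells, Sdhd gave a log2 ratio of 0.01.

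In complex III 5 of 8 subunits were higher (median log2 0.16), with members on both sides of 0. Uqcrq, the ubiquinone-binding small subunit (chromosome 11, 53427922 to 53430831), had the highest nuclear ratio on the log2(CPM + 1) scale, with 194 CPM in control against 285 CPM in STAT5 KO (log2 0.55, 0.52 to 0.59). Uqcr11, another small subunit, stood at 287 and 388 CPM (log2 0.44). The lower complex III members, picked after their values were seen, were the core protein Uqcrc2 (172 and 156 CPM, log2 -0.15), the Rieske iron-sulfur protein Uqcrfs1 (148 and 136 CPM, log2 -0.12) and the hinge protein Uqcrh (489 and 473 CPM, log2 -0.05). The other core protein, Uqcrc1, also outside the naming rule, was higher, at 176 and 191 CPM (log2 0.12).

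In complex IV 14 of the 15 subunits with enough UMIs were higher (median log2 0.17). Cox5b, which binds zinc, stood at 395 and 507 CPM (log2 0.36, 0.34 to 0.38), Cox8a at 750 and 906 CPM (log2 0.27), Cox7b at 241 and 299 CPM (log2 0.31), Ndufa4 at 871 and 991 CPM (log2 0.19) and the regulatory subunit Cox4i1 at 625 and 685 CPM (log2 0.13). In complex V 14 of 15 were higher (median log2 0.22). The c ring of ATP synthase is a single peptide sequence made from 3 nuclear genes, and these differed in size: Atp5g1 stood at 323 and 452 CPM (log2 0.48, 0.46 to 0.51), Atp5g3 at 318 and 371 CPM (log2 0.22) and Atp5g2 at 779 and 812 CPM (log2 0.06, 0.04 to 0.08). The catalytic subunit Atp5b stood at 629 and 721 CPM (log2 0.20), Atp5e at 600 and 733 CPM (log2 0.29) and Atp5j2 at 363 and 474 CPM (log2 0.39).

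The nuclear members outside the complexes differed less or the other way. Of the 12 assembly factors 7 were higher and 5 lower (median log2 0.07). Cox7a2l, a factor that joins complexes III and IV into supercomplexes, stood at 320 and 263 CPM (log2 -0.28, -0.31 to -0.25). Ndufa4l2, a hypoxia-linked relative of Ndufa4, was the only member over 20% lower, at 1.14 and 0.644 CPM. All of its 62 control UMIs and 52 of its 53 STAT5 KO UMIs lay in barcodes that are larger in another library, which leaves 1 UMI in all other kept KLS cells. Muscle and other restricted forms were rare in KLS cells, with Cox7a1 at 1.19 and 1.90 CPM, Cox6a2 at 10.5 and 9.44 CPM and Cox4i2 at 3.48 and 3.86 CPM. The testis form Cox6b2 stood at 62.6 and 64.9 CPM, beside Cox6b1 at 347 and 414 CPM.

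The most raised subunits were followed through the KLS gates, without barcodes larger in another library. Uqcrq was higher in STAT5 KO in all 7 gates, from a log2 ratio of 0.15 in the erythroid-primed gate (336 and 374 CPM, -0.02 to 0.33) to 0.58 in the lymphoid-primed gate (175 and 262 CPM, 0.52 to 0.64). Atp5g1 was higher in all 7 as well, from 0.14 in the erythroid-primed gate (744 and 822 CPM) to 0.52 in the lymphoid-primed gate (284 and 406 CPM). Its level in control varied more between gates, from 252 CPM in the stem-triad gate to 744 CPM in the erythroid-primed gate, than between genotypes in any gate.

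Cox7a2l and Sdhd kept the opposite sign in every gate. Cox7a2l stood at 361 CPM in control and 320 CPM with STAT5 KO in the stem-triad gate, its highest level, and at 240 and 213 CPM in the erythroid-primed gate, so its order between gates was the reverse of that of Atp5g1. Its log2 ratios lay between -0.27 and -0.17. Sdhd was farthest below control in the erythroid-primed gate (243 and 170 CPM, log2 -0.52, -0.74 to -0.30). Sdha, near control over all KLS cells, stood at 167 and 142 CPM in the stem-triad gate (log2 -0.24, -0.41 to -0.06) and had intervals that include 0 in the other 6 gates.

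**Figure D5:**
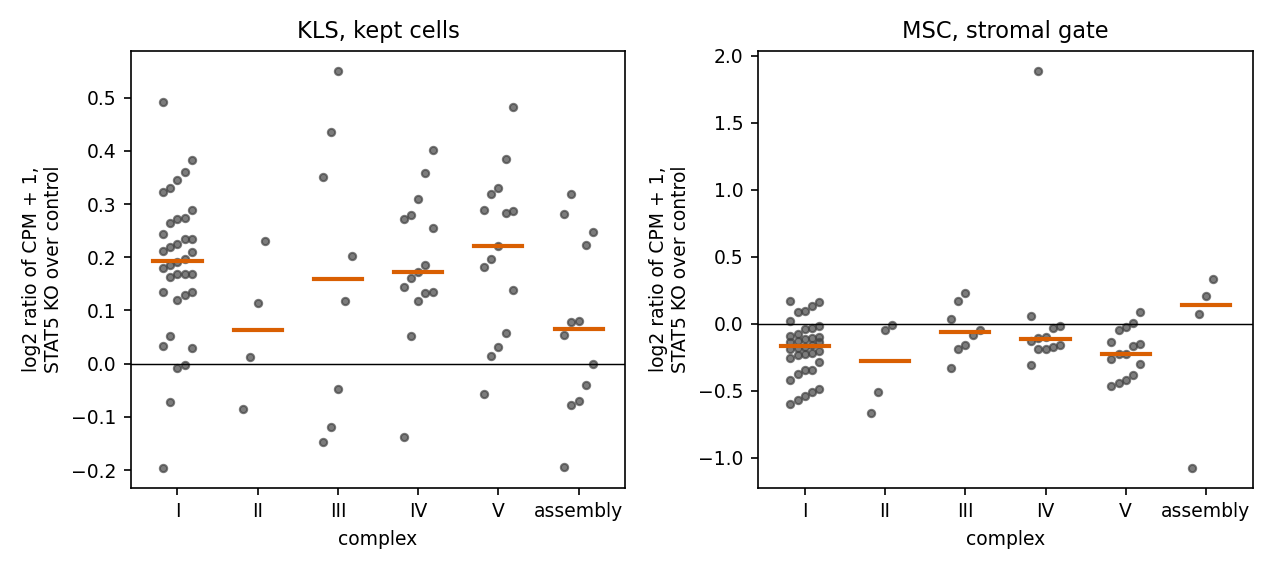
Log2 ratio of CPM + 1, STAT5 KO over control, for each nuclear member by complex, in kept KLS cells (left) and the MSC stromal gate (right); each point is 1 gene and each bar the median. In KLS the medians of all complexes lie above 0, and in the stromal gate those of complexes I to V lie below 0, with Cox4i2 far above.

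In the MSC stromal gate 81 of the nuclear members had at least 50 UMIs and 16 did not. Of the 81, 63 were lower in STAT5 KO and 18 higher (median log2 -0.14). All 6919 genes with that minimum had a median of -0.10, with 61.1% of them lower and 38.9% higher. Over 20% lower were 17 members and over 25% higher were 3, beside a background of 27% and 13% (40% in either direction), so the share of members with a large difference was below that of all genes in both directions. Over all kept MSC cells 53 of the 81 were lower and 28 higher, where 56.9% of 7300 genes were lower and 43.1% higher, and 12 were over 20% lower and 3 over 25% higher, beside a background of 23.3% and 14.5% (37.8% in either direction). Of the 81 members, 55 were higher in KLS and lower in the stromal gate of STAT5 KO, where 30.2% of 6380 genes had those signs. Another 14 were higher in both, as were 20.4% of the genes.

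Complex II was lowest among the complexes here, with its 4 genes summing to 251 CPM in control against 208 CPM in STAT5 KO (log2 -0.28, -0.52 to -0.04). Sdhd stood at 49.9 and 31.1 CPM (log2 -0.68, -1.31 to -0.09) and Sdhb at 74.8 and 52.1 CPM (log2 -0.52, with an interval that ends at -0.05). Complex I core subunits were also lower, with Ndufv2 at 81.1 and 53.1 CPM (log2 -0.61, -1.08 to -0.15), Ndufv1 at 61.7 and 43.0 CPM (log2 -0.52, -1.06 to -0.01) and Ndufs1 at 39.9 and 26.5 CPM, whose interval includes 0 (log2 -0.59, -1.28 to 0.06). The c ring gene Atp5g1, which was higher in KLS, stood at 161 and 118 CPM (log2 -0.45, -0.76 to -0.14). The assembly factor Ndufaf3 stood at 26.2 and 11.9 CPM (log2 -1.14, -2.16 to -0.21), and Cox7a2l was higher, at 87.3 and 123 CPM (log2 0.50, 0.15 to 0.85), the sign opposite to its KLS ratio.

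Cox4i2, the form of Cox4 known from lung and hypoxic tissue (chromosome 2, 152754173 to 152765037), had the highest ratio in the stromal gate, with 27.4 CPM in control against 104 CPM in STAT5 KO (log2 1.93, 1.41 to 2.46). Its common counterpart Cox4i1 stood at 435 and 399 CPM (log2 -0.13, -0.30 to 0.05). Stromal cells were then split by their markers, a split chosen after these values were seen. Cells with Col2a1 and Acan, cartilage genes, at 1% of UMIs or more numbered 29 in control and 32 in STAT5 KO and held 83120 and 312974 UMIs. Their median depth was 1030 UMIs in control against 9992 in STAT5 KO, so the genotypes were not matched for depth in this subset. In them Cox4i2 stood at 241 CPM (147 to 372) and 297 CPM (240 to 364), from 20 and 93 UMIs, of which 22 of the 93 came from 1 cell. In the other stromal cells that were not rich in Cxcl12 it stood at 10.8 CPM (5.58 to 18.9) and 32.6 CPM (19.6 to 50.9), from 12 and 19 UMIs. In Cxcl12-rich cells it went the other way, at 29.3 CPM (15.1 to 51.2) and 10.1 CPM (1.23 to 36.6), from 12 and 2 UMIs, with overlapping intervals. The cartilage-gene cells held the most Cox4i2 UMIs of these subsets in both genotypes. Within them the Cox4i2 intervals of the genotypes overlap.

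The direction of the sums was the same in each of these stromal subsets, though depth differed widely between the genotypes in the cartilage-gene cells. The mt- sum was 26829 and 30351 CPM in cartilage-gene cells, 16369 and 20471 CPM in Cxcl12-rich cells (106 and 56 cells) and 25742 and 29644 CPM in the other stromal cells (319 and 183 cells). The nuclear sum was 10719 and 9656 CPM, 10152 and 9277 CPM, and 12597 and 11978 CPM in the same order. Cxcl12-rich cells had the lowest mt- sum in both genotypes. Ndufa4l2 lay mostly in the other stromal cells, at 244 CPM (216 to 275) and 304 CPM (261 to 352). By depth, with all barcodes, the MSC mt- sum under 2000 UMIs was lower in STAT5 KO (300 and 195 barcodes, 45248 and 42458 CPM, log2 -0.09, -0.13 to -0.05). It was higher in the other bands with barcodes of both libraries. Among kept MSC cells the mt- sum was higher in STAT5 KO in the 4 bands with cells of both libraries. It stood at 23565 and 26662 CPM under 2000 UMIs (247 and 162 cells, log2 0.18), 23396 and 26341 CPM from 2000 to 5000 UMIs (268 and 170 cells, log2 0.17) and 18490 and 25837 CPM from 5000 to 10000 UMIs (93 and 36 cells, log2 0.48). The nuclear sum was lower in these 3 bands (log2 -0.18, -0.08 and -0.22) and higher from 10000 to 20000 UMIs, where there were 5 control and 16 STAT5 KO cells (8290 and 9863 CPM, log2 0.25). The erythroid cells of the MSC libraries held few member UMIs, with mt- sums of 1124 and 484 CPM and nuclear sums of 2331 and 900 CPM, and hemoglobin genes over all kept MSC cells stood at 30119 and 14106 CPM. In the unassigned MSC cells (34 and 20) the mt- sum was 26181 and 41998 CPM (log2 0.68). Their nuclear sum was higher in STAT5 KO, at 8752 and 15180 CPM (log2 0.79). Granule genes over all kept MSC cells stood at 83.2 and 1105 CPM. The stromal gate sums given above leave the erythroid and unassigned cells out. Immediate early genes, at 18859 and 22720 CPM over MSC cells, were also higher in STAT5 KO, and their part in the result was not tested.

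Stromal and KLS cells differed more than the genotypes did. In control, the mt- sum of the stromal gate was 53.5% of that of KLS cells (log2 -0.90) and the nuclear sum 57.7% (log2 -0.79), at a median depth of 3438 against 15477 UMIs. Of 92 nuclear members with enough UMIs, 86 were lower in stromal cells and 6 higher (median log2 -0.83 over the 90 with UMIs in both), where 61.4% of 11730 genes were lower and 38.6% higher. Of the mt- genes 10 of 13 were lower. The exceptions were again mt-Nd4l (617 CPM against 145 CPM, 4.27-fold) and mt-Atp8 (239 against 55.6 CPM, 4.29-fold), with mt-Nd5 at 1.21-fold. Cox4i2 was 8.91-fold higher in stromal cells. Ndufa4l2, at 175 CPM in stromal cells, had no UMI in the control KLS cells left after removal of the shared barcodes, which hold 54206954 UMIs and so allow up to 0.0553 CPM. Cox6b2 (6.24 against 62.8 CPM), Atp5g2 (198 against 783 CPM) and Ndufa4 (227 against 875 CPM) were among the members lowest in stromal relative to KLS cells. Age, sort and tissue digestion differ between these libraries and cannot be told apart from cell type.

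Genes that serve the pathway from outside the member list showed smaller KLS differences than the subunits. Of all 12354 genes with at least 100 UMIs, 47.4% were higher, 5.5% by over 25%, and 11.5% were over 20% lower. Of 78 mitochondrial ribosomal proteins, which translate the mt- messages, 67 were higher in STAT5 KO and 11 lower (median log2 0.14), with 3 over 25% higher and 1 over 20% lower. Of 37 further assembly factors and carriers 23 were higher (median log2 0.06). Among them cytochrome c, Cycs, stood at 208 and 267 CPM (log2 0.36), the complex III assembly factor Uqcc2 at 148 and 211 CPM (log2 0.51) and the adenine nucleotide carrier Slc25a5 at 619 and 737 CPM (log2 0.25), while the phosphate carrier Slc25a3 stood at 642 and 583 CPM (log2 -0.14). Of 18 citric acid cycle genes 13 were higher, and none by over 25% (median log2 0.04).

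Of 24 regulators of mitochondrial gene expression 15 were higher and 9 lower (median log2 0.08), where 47.4% of all genes were higher. Of the factors that copy or bind mitochondrial DNA, Tfam stood at 67.0 and 64.3 CPM (log2 -0.06, -0.12 to 0.00) and the polymerase Polg at 22.7 and 24.5 CPM (log2 0.11), while the helicase Twnk (25.4 and 30.6 CPM, log2 0.27), the topoisomerase Top1mt (9.18 and 11.2 CPM, log2 0.28) and the single-strand binding protein Ssbp1 (121 and 136 CPM, log2 0.17) were higher. Of those that transcribe it, the RNA polymerase Polrmt stood at 16.3 and 17.3 CPM (log2 0.09, -0.04 to 0.21), Tfb2m at 27.7 and 30.4 CPM (log2 0.13) and the elongation factor Tefm at 13.3 and 10.5 CPM (log2 -0.34, -0.49 to -0.20). Lrpprc, which binds and stabilises mt- messages, stood at 39.2 and 48.5 CPM (log2 0.31, 0.23 to 0.38). The coactivators differed in sign, with Ppargc1a at 2.66 and 1.64 CPM (log2 -0.70) and Ppargc1b at 10.1 and 15.8 CPM (log2 0.65, 0.51 to 0.80). The transcription factor Nrf1, which binds many nuclear respiratory promoters, stood at 53.9 and 55.4 CPM (log2 0.04, -0.03 to 0.11). A list of mitochondrial protein quality and antioxidant genes summed to 3041 and 3337 CPM (log2 0.13), and its members differed. The chaperones Hspd1 (355 and 476 CPM, log2 0.42) and Hspe1 (427 and 566 CPM, log2 0.41) were higher. From the same list Gpx4 stood at 428 and 452 CPM (log2 0.08) and Ucp2 was lower, at 299 and 242 CPM (log2 -0.31). Cytosolic ribosomal proteins, a list of abundant short messages, had a median log2 ratio of -0.00, with 46 of 94 higher. Heat shock genes, at 3795 and 4978 CPM, and granule genes, at 1125 and 1856 CPM, were higher in KLS STAT5 KO. Of the 4 genes listed as signs of RNA quality, Gm42418 stood at 507 and 1045 CPM (log2 1.04), AY036118 at 13.7 and 35.2 CPM (log2 1.36), Neat1 at 197 and 181 CPM (log2 -0.12) and Malat1, a nuclear RNA, at 10076 and 8515 CPM (log2 -0.24) in KLS. In the MSC stromal gate Gm42418 stood at 5983 and 5715 CPM and Malat1 at 42446 and 41940 CPM. The part of these lists in the mt- and nuclear ratios was not tested.

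In the stromal gate the lists outside the members had medians below 0 in STAT5 KO, with 40 of 57 mitochondrial ribosomal proteins (median log2 -0.23), 13 of 19 assembly factors and carriers (-0.17), 11 of 16 citric acid cycle genes (-0.14) and 9 of 12 regulators (-0.15) lower. Over all genes of the gate 61.1% were lower with a median of -0.10, so these shares lie near or moderately above the background. Cytosolic ribosomal proteins went the other way, with 75 of 87 higher (median log2 0.11).

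RefSeq promoters (GRCm38.p6, 250 bases before to 50 after the start) were found for 80 of the 97 nuclear members, 85 promoters in all, with a GC content of 58.7% against 52.7% over all 32851 promoters. Both strands were searched for the letters of 8 motifs. The members are all protein coding, so 21263 promoters of coding genes are the closer background, given here after the share of all promoters. The NRF1 motif (GCGCA, any base, GCGC) was in 25.9% of member promoters, 4.60% of all and 6.38% of coding ones. The ETS motif CCGGAAG was in 24.7, 8.86 and 11.6%, the YY1 motif AANATGGCG in 14.1, 2.38 and 3.12%, and the ERR motif TCAAGGTCA in 2.35, 0.423 and 0.334%, the last from 2 member promoters. The others were near the coding background: CCAAT in 42.4, 37.4 and 38.2%, the SP motif GGGCGG in 47.1, 35.7 and 46.2%, the E-box CACGTG in 8.24, 7.15 and 7.84% and TATAAA in 10.6, 13.6 and 12.6%. A match is a description of letters and no evidence of binding in these cells. Promoters of 3 members are shown because they hold the NRF1 letters while their KLS log2 ratios differ, with Ndufs6 at 0.33, Sdha at 0.01 and Sdhd at -0.08. Capitals mark matches to the NRF1, ETS and YY1 motifs, and sequences read 5′ to 3′ on the gene's strand (minus for all 3), at chr13:73328433-73328732, chr13:74350191-74350490 and chr9:50603800-50604099. Sdha holds 3 NRF1 matches, Ndufs6 holds NRF1 and YY1, and Sdhd holds NRF1 and ETS. Sdhd also holds an ERR match, from base 287, which is not in capitals, and matches to the other motifs are not marked.
Ndufs6: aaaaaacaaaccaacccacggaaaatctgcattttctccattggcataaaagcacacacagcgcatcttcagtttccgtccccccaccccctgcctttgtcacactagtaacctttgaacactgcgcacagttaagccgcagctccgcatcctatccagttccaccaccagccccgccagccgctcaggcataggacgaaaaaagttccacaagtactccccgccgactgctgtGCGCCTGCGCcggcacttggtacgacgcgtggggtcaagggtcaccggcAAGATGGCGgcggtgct
Sdha: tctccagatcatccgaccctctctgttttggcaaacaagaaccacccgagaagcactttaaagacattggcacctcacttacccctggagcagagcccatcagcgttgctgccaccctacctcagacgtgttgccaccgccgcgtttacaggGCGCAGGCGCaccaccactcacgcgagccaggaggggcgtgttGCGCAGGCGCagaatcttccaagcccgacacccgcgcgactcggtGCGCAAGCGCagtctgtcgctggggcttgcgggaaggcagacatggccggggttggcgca
Sdhd: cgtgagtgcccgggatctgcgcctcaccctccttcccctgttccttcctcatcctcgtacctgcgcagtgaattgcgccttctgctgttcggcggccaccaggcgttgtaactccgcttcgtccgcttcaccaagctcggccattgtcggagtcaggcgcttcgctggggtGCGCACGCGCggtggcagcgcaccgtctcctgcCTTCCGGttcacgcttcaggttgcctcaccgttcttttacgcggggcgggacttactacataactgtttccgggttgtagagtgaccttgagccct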

How the data were processed

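Bone marrow cells of 4 groups, with 1 library each, were measured by droplet single-cell RNA sequencing. The deposited matrices hold raw UMI counts per gene and barcode, with no normalization, and name software version 3.1.0 per the file headers. Cell Ranger and the builds GRCm38 and mm10 are listed in the submitters' processing notes; strand handling and cell calling are not given in the sources used here. No correction for free RNA was made, and doublets were left in, with the highest Scrublet scores (scanpy 1.11.5) left out as an alternative.

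UMIs were summed over cells with at least 200 genes and at most 10% mt- UMIs and divided by all gene UMIs of those cells to give CPM. Sums carry exact Poisson intervals and ratios exact conditional binomial intervals (95%, scipy 1.17.1), which cover counting error only. Ratios of single genes are of CPM, and counts of genes over 25% higher or 20% lower and list medians used a pseudocount of 1 CPM and at least 100 UMIs (KLS) or 50 UMIs (MSC) over both libraries. Named nuclear members are the 10 with the largest absolute ratio in each sort, the alternative subunits, the Sdh subunits and the 5 with the most UMIs; members named outside this rule are said to be picked after their values were seen or stand for a list. The members, gates and lists were chosen with earlier results of these data known. Alternatives covered the cell filter, shared barcodes, doublets, scaling (outside mt- genes, and TMM in edgeR 4.0.16, used for factors only), weighting, pseudocount and UMI minimum. Gene positions are of GENCODE M21.

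The ratio step was run on simulated counts with counting error only, and 2-fold and 4-fold changes were planted in 200 genes. For KLS (12354 genes) the direction of all planted changes was recovered (100%). For MSC (7300 genes) it was recovered for 98.1% of the 2-fold and 100% of the 4-fold changes. Changes smaller than 2-fold and the spread between mice or preparations were not simulated, so the run does not cover them.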

Additional observations from a re-analysis of the deposited data

Results flagged for a closer look

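The sums of both sets of members had opposite signs in the 2 sorts. The mt- log2 ratio of STAT5 KO to control was -0.57 in KLS and 0.31 in MSC. The nuclear log2 ratio was 0.19 in KLS and -0.085 in MSC. In MSC the median log2 ratio of nuclear members, -0.09, lay near that of all 7300 genes, -0.06. In KLS the medians were 0.18 for nuclear members and -0.01 for all 12354 genes. Each value sets 1 library against 1 other, so the difference between the sorts was not tested. The sorts also differ in the age of the mice, the tissue preparation and the depth per cell, which cannot be told apart from the sort.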

How the results depend on the processing

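No sum over a library changed its sign under any alternative run. The KLS mt- log2 ratio (-0.57) was -0.61 with all barcodes, -0.54 at no more than 5% mt- counts, -0.57 without barcodes larger in another library and also without the highest doublet scores, -0.59 per 1000000 UMIs outside mt- genes, -0.52 with TMM, -0.50 as the mean of single cells, -0.56 with gates and -0.59 with depth bands weighted to control. The KLS nuclear ratio (0.19) was 0.19 with all barcodes, 0.17 at no more than 5% and per 1000000 outside mt- genes, 0.23 with TMM, with the mean of single cells and with depth bands weighted, 0.15 with gates weighted and 0.19 for subunits alone. The MSC mt- ratio (0.31) was 0.20 with all barcodes, 0.33 at no more than 5%, 0.35 with TMM, 0.16 as the mean of single cells, 0.27 in the stromal gate and 0.23 there without cartilage-gene cells, the last chosen after seeing the data. The MSC nuclear ratio (-0.09) was -0.043 with TMM, -0.15 as the mean of single cells and -0.13 in the stromal gate. The cause of these shifts was not tested. With TMM, 23 rather than 14 KLS nuclear members were over 25% higher, where 7.97% of all genes were. Per 1000000 UMIs outside mt- genes the count fell to 11, where 4.74% of all genes were. Of 644 values of single members and medians under an alternative, 511 stayed within counting error, 132 moved and 1 reversed, Sdhd in KLS, from -0.08 to 0.0086 as the mean of single cells. A reversal was counted only where the main interval excluded 0, so other changes of sign fall among the 511 or the 132. No paired analysis was possible because each group has 1 library and the replicate numbers come from accession order, and for the same reason no replicate could be left out. The MSC libraries, with 1802787 and 1217880 UMIs in kept cells, limit single members to differences wider than their counting intervals.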
